A study of Mus musculus with 8 samples.

Results

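DNA replication and nucleotide supply genes are the genes for the proteins that load and unwind replication origins, copy DNA, make its precursors and restore chromatin behind the fork. They were taken as a named list of 49 genes, each found by its symbol among the 52636 genes of the count table. RNA was sequenced from primary microglia, the resident macrophages of the brain, of C57BL/6 WT mice. The cells were shaken off mixed glial cultures of neonatal (P2-P3) brains and kept in DMEM with 10% serum and 10 ng/ml CSF-1, the growth factor on which microglial survival depends. They then received either 5 µg/ml LPS (lipopolysaccharide, a bacterial cell wall component that activates microglia through Toll-like receptor signalling) or vehicle for 24 h, with 4 libraries in each group, called Vehicle and LPS here. The labels call the libraries biological replicates but do not say whether they came from separate cultures or litters, so p-values measure the spread between these libraries.

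Before S phase the origin recognition complex, Cdc6 and Cdt1 load the MCM ring onto DNA, and geminin (Gmnn) holds Cdt1 in check once replication has begun. Kinases, Mcm10, Cdc45 and GINS then turn the ring into a working helicase, primase and the polymerases alpha, delta and epsilon copy the strands on the sliding clamp, and ribonucleotide reductase, thymidylate synthase, thymidine kinase and dUTPase supply the nucleotides. Many of these genes are known targets of E2F factors, whose activity rises at the end of G1, and macrophages exposed to LPS are known to stop cycling.

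The libraries held 20071921 to 30604447 counts, and all 49 genes were detected in each of the 8. Levels are given as CPM, read counts scaled to a common library size with TMM normalization, always in the order of replicates 1 to 4. Microglial markers were abundant in both groups, with 12 markers summing to 12270 to 14996 CPM in the Vehicle and 3835 to 4079 CPM in the LPS libraries. Of these markers 10 fell and 1 rose. All 8 inflammatory genes used to check the treatment labels, such as Nos2 and Il6, rose in the LPS libraries. Markers of other cell types summed to far less. OPC (oligodendrocyte precursor) markers gave 27.5 to 143 CPM in the Vehicle and 63.8 to 139 CPM in the LPS libraries, and astrocyte markers 21.1 to 52.5 and 42.5 to 125 CPM. Of the OPC markers 3 fell and Vcan rose, and of the astrocyte markers 3 fell and Gja1 rose. In LPS replicate 1, Vcan alone gave 104 CPM and Gja1 alone 98.1 CPM. Endothelial markers gave 37.3 to 84.2 and 196 to 272 CPM, and of these 8 markers Pecam1, Cdh5 and Flt1 rose, while Cldn5, Tek and Esam were at or under 3 counts in every library. The sums were 150.1 to 205 against 188 to 238 CPM for oligodendrocyte markers, 3.76 to 7.56 against 7.57 to 24.999 CPM for fibroblast or mural cell markers, and 8.15 to 23.6 against 3.12 to 11.5 CPM for neuronal markers. Of the oligodendrocyte markers Mbp fell and Cnp rose, and Cnp alone gave 189 CPM in LPS replicate 1. Of the fibroblast or mural cell markers Dcn rose, and of the neuronal markers 4 fell. The part of other cells in the results below was not tested.

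Promoters of 5 of the genes that fell or rose after LPS are shown as examples with and without the letters of an E2F site. Each run is the 180 bases before a RefSeq transcription start (build GRCm38.p6), written 5′ to 3′ in the direction of the gene, with the E2F letters TTTGGCGC, TTTCGCGC, TTTCCCGC or TTTGCCGC, read on either strand, in capitals. Matches that overlap run together. Mcm5, Mcm6 and Pola1 fell after LPS and hold such letters. Mcm2 fell and Pola2 rose, and neither holds them. Such letters also stand in promoters of Pold3, which rose, and of Cdt1 and Rfc3, which did not pass the test. The runs lie at chr8:75109329-75109508 on the plus strand, chr1:128359706-128359885 on the minus strand, chrX:93632156-93632335 on the minus strand, chr6:88898781-88898960 on the minus strand and chr19:5964207-5964386 on the minus strand, and none of them overlaps an annotated exon.
Mcm5: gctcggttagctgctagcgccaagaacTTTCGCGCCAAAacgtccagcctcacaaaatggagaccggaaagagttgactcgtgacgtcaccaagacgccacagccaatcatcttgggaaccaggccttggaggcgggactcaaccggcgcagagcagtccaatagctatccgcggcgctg
Mcm6: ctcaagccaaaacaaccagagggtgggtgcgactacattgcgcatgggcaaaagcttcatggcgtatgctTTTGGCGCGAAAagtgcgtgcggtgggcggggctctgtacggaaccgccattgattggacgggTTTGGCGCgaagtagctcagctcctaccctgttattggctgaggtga
Pola1: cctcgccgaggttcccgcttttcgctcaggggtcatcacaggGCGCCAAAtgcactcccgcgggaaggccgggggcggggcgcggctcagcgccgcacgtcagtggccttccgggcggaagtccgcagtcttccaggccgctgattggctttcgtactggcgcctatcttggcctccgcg
Mcm2: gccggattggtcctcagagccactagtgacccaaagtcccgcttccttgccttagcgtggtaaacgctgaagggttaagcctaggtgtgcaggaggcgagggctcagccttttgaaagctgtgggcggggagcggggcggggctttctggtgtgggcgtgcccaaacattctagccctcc
Pola2: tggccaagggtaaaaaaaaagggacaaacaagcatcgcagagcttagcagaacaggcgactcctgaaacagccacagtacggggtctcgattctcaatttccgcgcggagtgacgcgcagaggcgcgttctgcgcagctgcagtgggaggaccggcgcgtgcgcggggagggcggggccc

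RefSeq promoters, from 250 bases before to 50 bases after a start, were at hand for 41 of the 49 genes, 6 of them with several starts. E2F letters stood in a promoter of 17 of the 41 (41.5%), against 704 of 27025 genes in all (2.60%) and 4.67% of the 9790 other genes tested. A CCAAT box, the letters CCAAT on either strand and a binding site of NF-Y, stood in 61.0% of the 41, in 41.1% of all genes and in 42.7% of the other genes tested. The CHR element of late cell cycle genes, searched as TTTGAA or TTCGAA on either strand, stood in 19.5%, 21.7% and 16.4%. The median log2 fold change after LPS was -2.50 over the 17 genes with E2F letters and -1.27 over the 24 without. Other tested genes had medians of -0.25 with and -0.11 without them. These medians were not compared by a test. The largest falls of the 49 genes, Rrm2 (-5.81), Tk1 (-5.24) and Dut (-4.75), are among the 24 without E2F letters. The E2F strings hold none of the other motifs. A match of letters describes the sequence and does not show that a factor binds there.

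Of the 49 genes, 38 fell after LPS, 2 rose (Pola2 and Pold3) and 9 did not pass the test (edgeR quasi-likelihood test, Benjamini-Hochberg adjusted p under 0.05 over 13847 genes). Over all tested genes, 33.8% were called lower and 30.3% higher. The median log2 fold change of the 49 was -1.74, with a range from -5.81 (Rrm2) to 0.92 (Pola2), against a median of -0.11 over all tested genes. The median gene kept 30.0% of its Vehicle level, 31 genes fell by more than 1 on the log2 scale, and 8 were left with under 10% of it. All 4 LPS libraries lay below all 4 Vehicle libraries in 37 genes, which was so for 31.5% of all tested genes. In bulk RNA, fewer cells in S phase and less RNA per cell cannot be told apart. The map of levels by library shows the fall in most rows and the few pale or red rows among them.

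**Figure D1:**
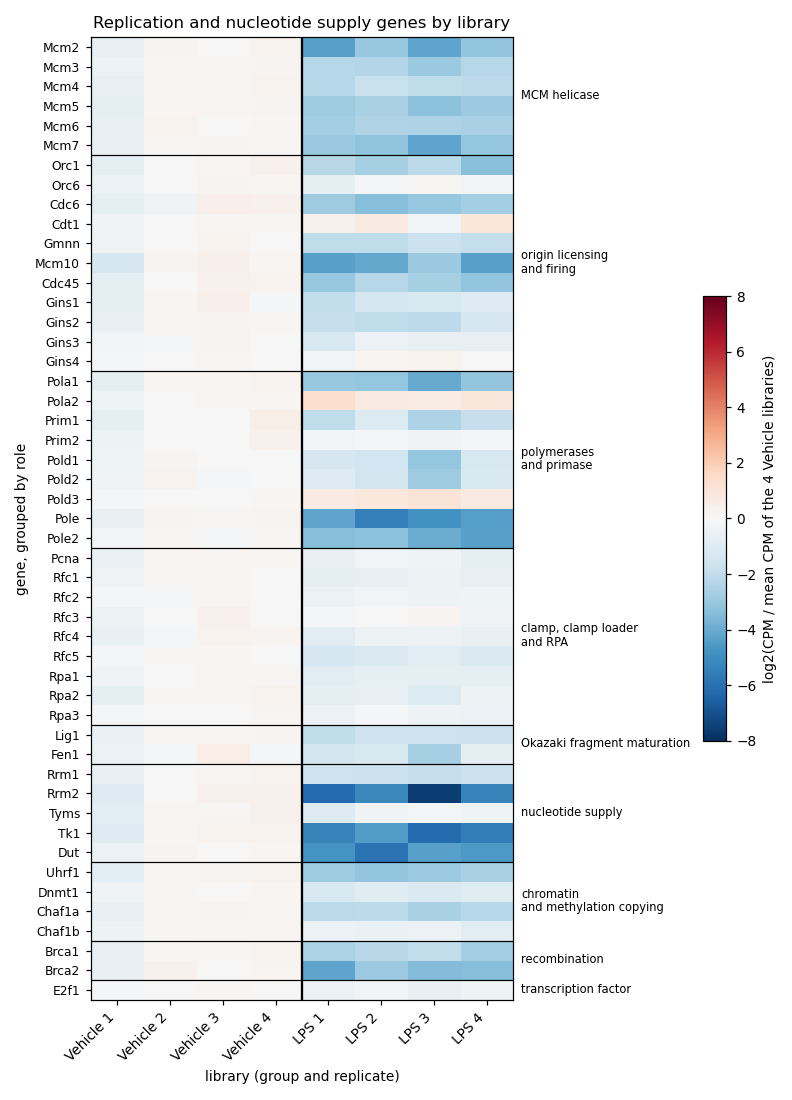
Level of each of the 49 genes (rows, grouped by role) in each of the 8 libraries (columns), as log2 of its CPM over the mean CPM of the 4 Vehicle libraries; blue is lower and red higher. Most rows are blue in all 4 LPS libraries, Pola2 and Pold3 are red, and Vehicle replicate 1 is pale blue beside the other, nearly white Vehicle columns.

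Together the 49 genes summed to 894, 1333, 1340 and 1388 CPM in the Vehicle libraries and to 547, 609.8, 554 and 600.0 CPM in the LPS libraries. Vehicle replicate 1 was the lowest Vehicle library in all 49 genes, by a median of 0.56 on the log2 scale below the Vehicle mean, and the mitotic genes were low in it too (median -0.84). Without this library, 40 genes were called lower, 2 higher, and the median was -1.86. Vehicle replicate 3 had the lowest OPC and astrocyte sums of its group (27.5 and 21.1 CPM) and was the highest Vehicle library in 22 of the 49 genes. Deviations of same-numbered libraries from their group means correlated at r = 0.37, 0.20, 0.17 and 0.11. Number 4 did not stand out, as Vehicle 2 with LPS 4 gave 0.15. A fit with the replicate number as a block called 40 genes lower and 2 higher. TMM also sets the zero line of these changes. Scaled by library totals alone, an alternative chosen after seeing the data, the median of all tested genes moved by -0.68 on the log2 scale, and 46 of the 49 genes were called lower and 0 higher. Under library totals, 8457 of all 13847 tested genes were called lower and 1988 higher. Lower calls made up 52.8% of all calls under TMM and 81.0% under library totals.

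All 6 MCM genes, which encode the ring of the replicative helicase, fell, with a median log2 fold change of -2.71. Mcm2, at chr6:88883474-88898780 on the minus strand (GRCm38), fell most. Its level was 24.4, 45.2, 40.5 and 46.8 CPM in the Vehicle libraries and 1.97, 4.90, 2.10 and 4.49 CPM in the LPS libraries. The groups lay far apart, and LPS replicates 1 and 3 were lower than replicates 2 and 4. Mcm2 was 11.7-fold lower after LPS (log2 fold change -3.54 ± 0.34, adjusted p = 1.67e-05). Mcm6, at chr1:128331590-128359664 on the minus strand, had the highest Vehicle level per length of all 49 genes, 26.7 CPM per kb of exon. It measured 80.1, 149, 128 and 142 CPM in the Vehicle libraries and 19.3, 23.5, 22.2 and 20.5 CPM in the LPS libraries. The LPS libraries were close together and all below the lowest Vehicle library, replicate 1 (log2 fold change -2.54 ± 0.19, adjusted p = 3.61e-06). The other MCM genes had log2 fold changes from -2.05 (Mcm4) to -3.29 (Mcm7). Of the 50-base windows of Mcm7, 23.3% also occur in other genes, most of them in Gm5487 (16.5% of the windows), so its counts are less certain.

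Origin licensing and firing genes split into a larger group that fell and a smaller one that did not pass the test. Of 11 genes, 8 fell: Orc1 (-2.50), Cdc6 (-2.97), Gmnn (-1.91), Mcm10 (-3.78), Cdc45 (-2.71), Gins1 (-1.37), Gins2 (-1.79) and Gins3 (-0.71), all as log2 fold changes. Mcm10, which helps to fire the loaded helicase, fell most. Its level was 6.51, 19.2, 22.3 and 18.8 CPM in the Vehicle libraries and 0.838, 0.980, 2.15 and 0.811 CPM in the LPS libraries. Vehicle replicate 1 was far below its group and LPS replicate 3 above its own, yet the groups did not overlap (log2 fold change -3.78 ± 0.45, adjusted p = 6.71e-05). Of the exonic bases of Gins2, 67.3% are overlapped by Gse1 on the opposite strand, and whether the counting used strand is not stated.

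Cdt1, the MCM loader, did not pass the test, while its inhibitor Gmnn fell. Cdt1 measured 30.9, 38.1, 39.5 and 38.8 CPM in the Vehicle libraries and 46.3, 61.0, 31.6 and 70.5 CPM in the LPS libraries. LPS replicate 3 lay among the Vehicle libraries and the other LPS libraries above them all (log2 fold change 0.51 ± 0.22, adjusted p = 0.067). Without LPS replicate 3 its log2 fold change was 0.69 with an adjusted p of 0.00338, and DESeq2 gave 0.56 with an adjusted p of 0.0467. Scaled by library totals it was -0.15 (adjusted p = 0.602). Gmnn measured 11.6, 14.2, 17.2 and 14.2 CPM in the Vehicle libraries and 3.53, 3.43, 4.38 and 3.79 CPM in the LPS libraries. Each LPS library was far below each Vehicle library (log2 fold change -1.91 ± 0.16, adjusted p = 7.77e-06).

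Orc6, a subunit of the origin recognition complex, and Gins4, a subunit of the GINS complex, overlapped between the groups. Orc6 measured 7.35, 10.4, 11.8 and 11.0 CPM in the Vehicle libraries and 6.10, 9.58, 10.7 and 8.60 CPM in the LPS libraries. LPS replicate 1 was the lowest of the 8 and the other LPS libraries lay within the Vehicle range (log2 fold change -0.21 ± 0.21, adjusted p = 0.397). Gins4 had the highest Vehicle level per length of the licensing and firing genes, 12.8 CPM per kb, and measured 15.6, 17.7, 18.4 and 17.4 CPM in the Vehicle libraries and 14.7, 19.1, 21.0 and 17.3 CPM in the LPS libraries. Its LPS libraries spread on both sides of the Vehicle libraries (log2 fold change 0.06 ± 0.13, adjusted p = 0.686). The sign of the Gins4 difference depended on the scaling, at -0.10 under upper quartile normalization and -0.62 (adjusted p = 0.000883) under library totals.

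Polymerase and primase genes held both the rises and some of the largest falls. Of 9 genes, 6 fell, 2 rose and Prim2 did not pass the test. Pole and Pole2 of polymerase epsilon, which copies the leading strand, both fell, and the catalytic gene Pole, at chr5:110286306-110337474 on the plus strand, fell most. Its level was 9.28, 16.7, 15.6 and 17.0 CPM in the Vehicle libraries and 0.778, 0.327, 0.513 and 0.703 CPM in the LPS libraries. The LPS values rest on 6 to 13 counts a library, and none came near the Vehicle range. Pole was 25.2-fold lower (log2 fold change -4.65 ± 0.30, adjusted p = 1.60e-06), and Pole2, the second subunit, 12.9-fold lower (log2 fold change -3.69 ± 0.26, adjusted p = 2.61e-06). Pola1, the catalytic subunit of polymerase alpha, was 9.87-fold lower (log2 fold change -3.30 ± 0.29, adjusted p = 9.67e-06).

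Subunits of polymerases alpha and delta moved in both directions. Pola2, the accessory subunit of polymerase alpha, at chr19:5940542-5964202 on the minus strand, measured 17.8, 23.4, 23.9 and 24.5 CPM in the Vehicle libraries and 57.2, 37.0, 34.3 and 41.1 CPM in the LPS libraries. All LPS libraries were above all Vehicle libraries, with LPS replicate 1 the highest (log2 fold change 0.92 ± 0.18, adjusted p = 0.00126). Pold3, an accessory subunit of polymerase delta, had the highest Vehicle level per length of the polymerase genes, 8.66 CPM per kb, and measured 35.5, 41.6, 40.2 and 42.1 CPM in the Vehicle libraries and 61.5, 70.6, 80.9 and 65.8 CPM in the LPS libraries. The groups did not overlap (log2 fold change 0.81 ± 0.11, adjusted p = 0.00015). The catalytic subunit Pold1 measured 18.1, 27.0, 24.1 and 24.3 CPM in the Vehicle libraries and 9.28, 8.22, 2.75 and 9.58 CPM in the LPS libraries. It was lower in every LPS library and lowest in LPS replicate 3 (log2 fold change -1.65 ± 0.33, adjusted p = 0.00163). Pold2 (-1.49) and the primase gene Prim1 (-1.78) fell as well. Prim2, the large primase subunit, measured 8.75, 11.6, 11.6 and 15.1 CPM in the Vehicle libraries and 9.93, 10.6, 9.65 and 10.7 CPM in the LPS libraries. The LPS libraries lay within the Vehicle range (log2 fold change -0.20 ± 0.17, adjusted p = 0.313). Under library totals neither rise was called, with log2 fold changes of 0.25 for Pola2 and 0.12 for Pold3.

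**Figure D2:**
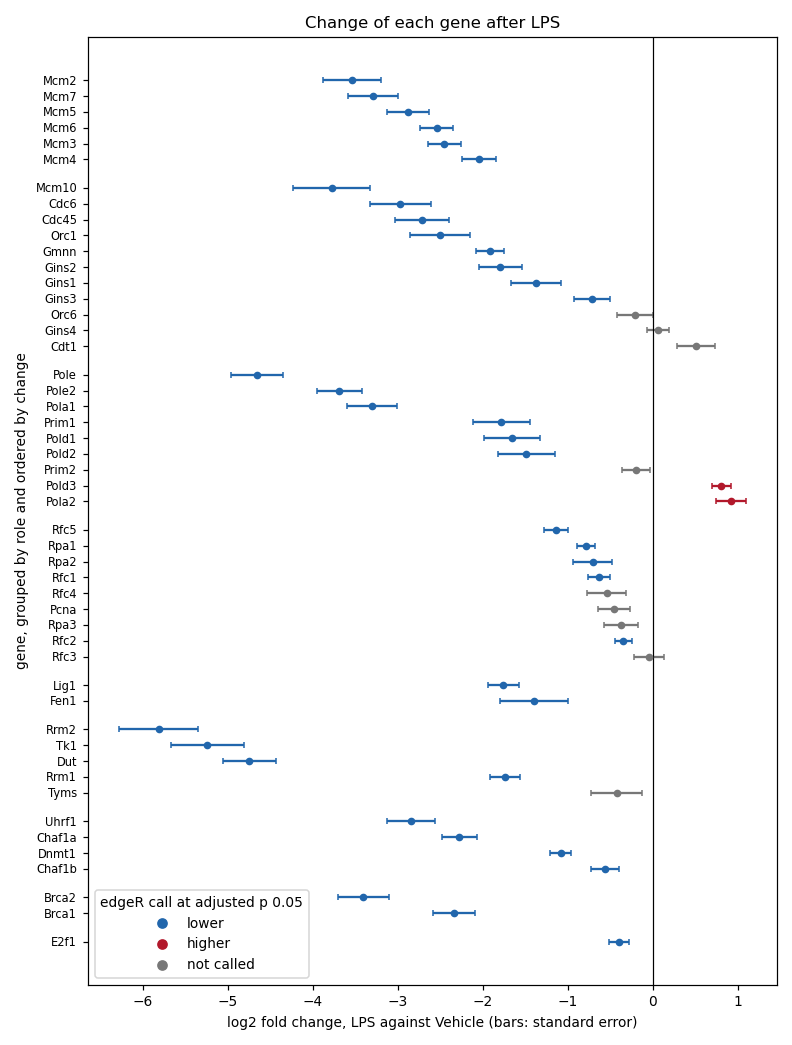
Log2 fold change of LPS against Vehicle for each gene (points) with its approximate standard error (bars), grouped by role and ordered by size. Blue genes were called lower, red higher and grey not called at an adjusted p of 0.05. The points run from -5.81 for Rrm2 to 0.92 for Pola2, and the clamp, clamp loader and RPA genes lie between -1.14 and -0.04.

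The clamp, clamp loader and RPA genes had a median log2 fold change of -0.54, the closest to 0 among the roles with more than 1 gene. Of 9 genes, 5 fell (Rfc1, Rfc2, Rfc5, Rpa1 and Rpa2) and 4 did not pass the test (Pcna, Rfc3, Rfc4 and Rpa3). Rfc5, a small subunit of the clamp loader, fell most. Its level was 11.0, 13.1, 13.0 and 12.4 CPM in the Vehicle libraries and 4.79, 5.50, 6.53 and 5.57 CPM in the LPS libraries. The groups were clearly apart (log2 fold change -1.14 ± 0.14, adjusted p = 8.07e-05). Rpa1, the large subunit of the protein that coats the unwound strands, had the highest Vehicle level per length of this role, 11.4 CPM per kb. It measured 52.8, 65.3, 68.7 and 67.9 CPM in the Vehicle libraries and 34.1, 37.2, 38.1 and 38.4 CPM in the LPS libraries. Both groups were tight and did not overlap (log2 fold change -0.78 ± 0.11, adjusted p = 0.000147). Rfc1, the large clamp loader subunit, measured 54.5, 71.3, 73.2 and 70.2 CPM in the Vehicle libraries and 38.5, 42.7, 50.5 and 42.1 CPM in the LPS libraries. Every LPS library was below Vehicle replicate 1, the lowest of its group (log2 fold change -0.63 ± 0.13, adjusted p = 0.00162).

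Pcna, the sliding clamp, is often used as a mark of S phase. It measured 7.81, 12.4, 12.5 and 12.2 CPM in the Vehicle libraries and 7.30, 9.58, 8.86 and 6.92 CPM in the LPS libraries. Vehicle replicate 1 lay within the LPS range and the other Vehicle libraries above it (log2 fold change -0.46 ± 0.19, adjusted p = 0.0564). Rfc4, a small clamp loader subunit, measured 4.24, 5.95, 7.99 and 7.60 CPM in the Vehicle libraries and 3.53, 4.90, 4.94 and 4.33 CPM in the LPS libraries. Vehicle replicate 1 again lay within the LPS range (log2 fold change -0.54 ± 0.23, adjusted p = 0.0615). With the replicate block both were called lower, at adjusted p-values of 0.0453 for Pcna and 0.0426 for Rfc4, and without Vehicle replicate 1 at 0.011 and 0.0164. Of the 50-base windows of Pcna, 19.1% also occur in the pseudogene Pcna-ps2.

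Rfc3, another small clamp loader subunit, showed the smallest difference of the 49. It measured 10.8, 14.4, 17.7 and 13.8 CPM in the Vehicle libraries and 12.6, 13.9, 16.8 and 11.7 CPM in the LPS libraries. The groups covered almost the same range (log2 fold change -0.04 ± 0.18, adjusted p = 0.85). Rpa3, the smallest RPA subunit, measured 2.49, 2.73, 2.73 and 2.88 CPM in the Vehicle libraries and 1.92, 2.51, 2.01 and 1.95 CPM in the LPS libraries. LPS replicate 2 lay within the Vehicle range and the other LPS libraries below it (log2 fold change -0.37 ± 0.20, adjusted p = 0.133). Rfc2 (log2 fold change -0.35 ± 0.10, adjusted p = 0.0134) and Rpa2 (log2 fold change -0.71 ± 0.23, adjusted p = 0.0204) lost their calls when some Vehicle libraries were left out. Without Vehicle replicate 3 or 4 the adjusted p-values were 0.0919 and 0.0501 for Rfc2, and without Vehicle replicate 2, 3 or 4 they were 0.0641, 0.0763 and 0.0795 for Rpa2.

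The genes that finish Okazaki fragments both fell. Lig1, the ligase that joins the fragments, measured 26.4, 42.9, 41.0 and 45.2 CPM in the Vehicle libraries and 9.58, 12.2, 12.6 and 11.6 CPM in the LPS libraries. The groups did not overlap, and Lig1 was 3.38-fold lower (log2 fold change -1.76 ± 0.18, adjusted p = 2.45e-05). Fen1, the flap nuclease, was 2.63-fold lower (log2 fold change -1.40 ± 0.40, adjusted p = 0.0112), but 84.2% of its exonic bases are overlapped by genes on the opposite strand, most of them by Gm10143 (78.8% of the bases).

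Nucleotide supply genes held the largest falls of the list. Of 5 genes, 4 fell, and Tyms did not pass the test. Rrm2, the regulated subunit of ribonucleotide reductase, lies at chr12:24708241-24714146 on the plus strand. It measured 8.54, 17.2, 22.0 and 22.8 CPM in the Vehicle libraries and 0.239, 0.490, 0.0933 and 0.433 CPM in the LPS libraries. The LPS values rest on 2 to 9 counts a library and all lie far below Vehicle replicate 1, the lowest of its group. Rrm2 was 56.3-fold lower (log2 fold change -5.81 ± 0.47, adjusted p = 5.39e-06). The catalytic subunit Rrm1 had the highest Vehicle level per length of this role, 7.36 CPM per kb, and measured 53.7, 83.8, 90.3 and 96.5 CPM in the Vehicle libraries and 25.7, 24.2, 23.0 and 24.3 CPM in the LPS libraries. The LPS libraries were nearly equal (log2 fold change -1.74 ± 0.17, adjusted p = 1.91e-05).

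Tk1, the cytosolic thymidine kinase that salvages thymidine in S phase, at chr11:117815526-117826092 on the minus strand, measured 4.76, 10.4, 12.1 and 12.04 CPM in the Vehicle libraries and 0.239, 0.436, 0.140 and 0.216 CPM in the LPS libraries. Its LPS libraries held 3 to 8 counts each, and the groups did not overlap. Tk1 was 37.8-fold lower (log2 fold change -5.24 ± 0.43, adjusted p = 5.89e-06). Dut, the dUTPase that keeps uracil out of DNA, at chr2:125247190-125258608 on the plus strand, measured 4.83, 7.47, 6.72 and 7.17 CPM in the Vehicle libraries and 0.239, 0.109, 0.326 and 0.270 CPM in the LPS libraries. The LPS values rest on 2 to 7 counts, all far below the Vehicle range. Dut was 26.9-fold lower (log2 fold change -4.75 ± 0.32, adjusted p = 1.76e-06). Tyms, which makes dTMP from dUMP, had the lowest Vehicle level per length of the 49 genes, 0.615 CPM per kb, and measured 2.07, 4.22, 4.00 and 4.69 CPM in the Vehicle libraries and 1.80, 3.05, 3.31 and 2.98 CPM in the LPS libraries. Vehicle replicate 1 lay among the LPS libraries and the other Vehicle libraries above them (log2 fold change -0.42 ± 0.30, adjusted p = 0.236).

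The genes that copy DNA methylation and chromatin behind the fork all fell, by unequal amounts. Uhrf1, which brings the methyltransferase to newly copied DNA, fell most. It measured 7.98, 16.5, 17.8 and 18.6 CPM in the Vehicle libraries and 2.15, 1.69, 2.05 and 2.54 CPM in the LPS libraries. The lowest Vehicle library, replicate 1, was above every LPS library (log2 fold change -2.85 ± 0.28, adjusted p = 2.08e-05). Dnmt1, the maintenance methyltransferase, had the highest Vehicle level per length of this role, 17.9 CPM per kb, and measured 107, 139.8, 135 and 146 CPM in the Vehicle libraries and 55.7, 67.1, 58.1 and 68.0 CPM in the LPS libraries. The groups did not overlap (log2 fold change -1.08 ± 0.12, adjusted p = 5.09e-05). Chaf1a, the large subunit of the histone chaperone CAF-1, measured 9.70, 15.05, 17.0 and 15.6 CPM in the Vehicle libraries and 3.17, 3.38, 2.33 and 2.98 CPM in the LPS libraries. Every LPS library was below every Vehicle library (log2 fold change -2.27 ± 0.21, adjusted p = 1.32e-05), although 52.5% of its exonic bases are overlapped by Ubxn6 on the opposite strand. Chaf1b, its partner, measured 7.56, 10.7, 10.9 and 10.5 CPM in the Vehicle libraries and 7.18, 6.97, 7.14 and 5.52 CPM in the LPS libraries. The groups nearly touched, and the call (log2 fold change -0.57 ± 0.17, adjusted p = 0.0133) was lost without Vehicle replicate 3 (adjusted p = 0.0557).

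The recombination genes Brca1 and Brca2, which protect and repair stalled forks, both fell. Brca1 had the higher Vehicle level per length, 2.03 against 0.746 CPM per kb. It measured 10.9, 18.2, 19.3 and 20.9 CPM in the Vehicle libraries and 3.05, 3.65, 4.48 and 2.49 CPM in the LPS libraries. The groups did not overlap (log2 fold change -2.34 ± 0.25, adjusted p = 3.28e-05). Brca2 measured 6.69, 12.7, 10.1 and 11.3 CPM in the Vehicle libraries and 0.539, 1.36, 0.933 and 0.974 CPM in the LPS libraries. It was 10.6-fold lower (log2 fold change -3.41 ± 0.30, adjusted p = 1.01e-05).

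E2f1, an activator of many of the genes above, changed far less than most of them. It measured 25.8, 29.3, 31.8 and 30.3 CPM in the Vehicle libraries and 21.1, 25.7, 19.5 and 22.8 CPM in the LPS libraries. LPS replicate 2 almost reached Vehicle replicate 1, but the groups did not overlap (log2 fold change -0.40 ± 0.12, adjusted p = 0.0143). The call was lost without Vehicle replicate 2, 3 or 4, at adjusted p-values of 0.0556, 0.0868 and 0.0656.

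Levels per length of exon spread over 0.615 (Tyms) to 26.7 (Mcm6) CPM per kb in the Vehicle libraries. Across the 49 genes, the log2 Vehicle level per length and the log2 fold change correlated with a Pearson r of 0.23 and a Spearman rho of 0.24, a description over genes measured in the same libraries.

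**Figure D3:**
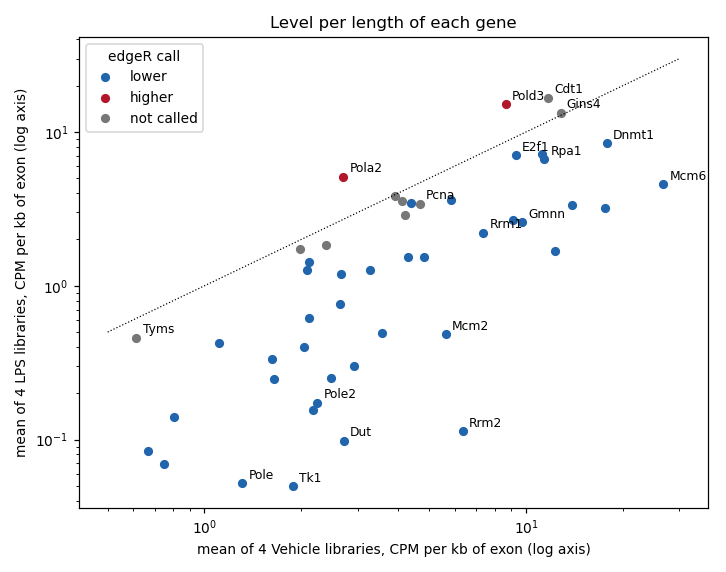
Mean level of each gene in the 4 LPS libraries against its mean in the 4 Vehicle libraries, both in CPM per kb of exon on log axes, coloured by the edgeR call; the dotted line marks equal levels. Rrm2, Tk1, Dut and Pole lie far below the line, and Pold3 and Pola2 lie above it.

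The members of a complex or step changed unequally in 5 of 6 gene pairs. How often any 2 tested genes would do so was not measured. Over all tested genes, 33.8% were called lower and 30.3% higher, so unequal change is not particular to these pairs. The pairs were chosen with earlier results of these data known, among them the rise of Pold3. The p-values below are therefore no independent support. The log2 ratio of 2 genes' CPM within a library does not depend on how libraries are scaled, and it was compared by a two-sided exact permutation test over the 70 divisions of the libraries, whose smallest possible p is 0.0286. For Cdt1 over Gmnn the log2 ratio was 1.41, 1.43, 1.20 and 1.45 in the Vehicle libraries and 3.71, 4.15, 2.85 and 4.22 in the LPS libraries. The ratio was higher in every LPS library (mean 1.37 ± 0.12 SD against 3.73 ± 0.63 SD, n = 4 each). For Rrm2 over Rrm1 it was -2.65, -2.29, -2.03 and -2.08 in the Vehicle libraries and -6.74, -5.63, -7.95 and -5.81 in the LPS libraries. Rrm2 lost far more than its partner in each LPS library (mean -2.26 ± 0.28 SD against -6.53 ± 1.06 SD, n = 4 each). For Pold3 over Pold1 it was 0.97, 0.63, 0.73 and 0.79 in the Vehicle libraries and 2.73, 3.10, 4.88 and 2.78 in the LPS libraries. LPS replicate 3 stood highest (mean 0.78 ± 0.14 SD against 3.37 ± 1.02 SD, n = 4 each).

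Dnmt1 over Uhrf1 gave 3.74, 3.09, 2.92 and 2.97 in the Vehicle libraries and 4.69, 5.31, 4.82 and 4.74 in the LPS libraries. The methyltransferase lost less than the protein that recruits it (mean 3.18 ± 0.38 SD against 4.89 ± 0.29 SD, n = 4 each). Chaf1a over Chaf1b gave 0.36, 0.49, 0.64 and 0.57 in the Vehicle libraries and -1.18, -1.05, -1.61 and -0.89 in the LPS libraries. The sign of this ratio turned between the groups (mean 0.51 ± 0.12 SD against -1.18 ± 0.31 SD, n = 4 each). These 5 ratios had the exact permutation p of 0.0286, 0.0343 after Benjamini-Hochberg adjustment over the 6. Rfc1 over Rfc4 gave 3.68, 3.58, 3.20 and 3.21 in the Vehicle libraries and 3.45, 3.12, 3.35 and 3.28 in the LPS libraries. Its groups overlapped (mean 3.42 ± 0.25 SD against 3.30 ± 0.14 SD, n = 4 each, exact permutation p = 0.457). With the libraries paired by replicate number, the exact sign flip p of the 5 was 0.125, the smallest that 4 pairs can give, with all 4 pairs in 1 direction for each.

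**Figure D4:**
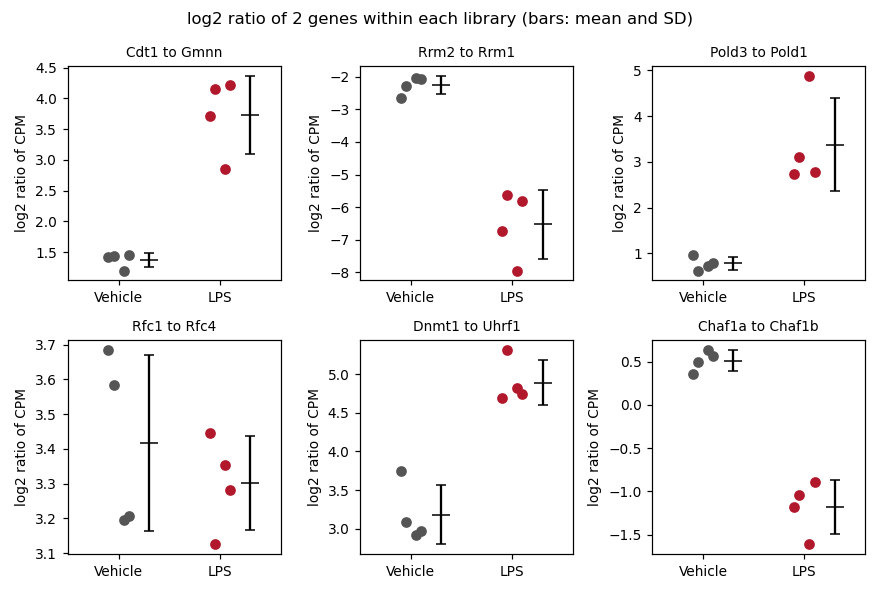
Log2 ratio of the CPM of 2 genes within each library (points), in the 4 Vehicle and the 4 LPS libraries, with the mean and SD beside them. The groups are separate in every panel except Rfc1 to Rfc4, where they overlap.

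Further genes of the pathways were counted from lists chosen by role. Of 37 other replication genes, 19 fell, 6 rose and 12 did not pass the test, with a median log2 fold change of -0.42. The largest falls were those of Clspn, which carries the checkpoint signal at forks (log2 fold change -5.36 ± 0.53, adjusted p = 2.06e-05), Ticrr, which helps to fire origins (log2 fold change -5.02 ± 0.57, adjusted p = 4.82e-05), and Hells, a chromatin remodeller (log2 fold change -3.35 ± 0.28, adjusted p = 6.48e-06). The rises were Timeless (1.19), Pold4 (1.08), Mcmbp (1.00), Asf1a (0.97), Mcm9 (0.81) and Pole4 (0.77), all as log2 fold changes. Pold4 and Pole4 encode the smallest subunits of polymerases delta and epsilon. Under library totals 31 of the 37 were called lower and 1, Mcmbp, higher. Over all 13847 tested genes these calls numbered 8457 and 1988.

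Of 37 other genes of nucleotide synthesis and salvage, 36 were found and 35 tested, and 23 fell, 4 rose and 8 did not pass the test (median log2 fold change -0.83). Dctd, the dCMP deaminase (log2 fold change -3.69 ± 0.55, adjusted p = 0.00027), Mthfd1, a folate enzyme of the cytosol (log2 fold change -2.64 ± 0.24, adjusted p = 1.05e-05), and Ctps, a CTP synthase (log2 fold change -2.33 ± 0.24, adjusted p = 2.26e-05), fell most. Upp1, the uridine phosphorylase that breaks down uridine, rose by far the most. It measured 0.245, 0.0692, 0.0634 and 0.0355 CPM in the Vehicle libraries and 459.7, 259.5, 360.2 and 252 CPM in the LPS libraries. The Vehicle libraries held 1 to 7 counts, against at least 4659 in every LPS library (log2 fold change 11.59 ± 0.42, adjusted p = 9.70e-08). Mthfd2, a mitochondrial folate enzyme (log2 fold change 2.17 ± 0.14, adjusted p = 1.20e-06), and Samhd1, which degrades dNTPs (log2 fold change 1.69 ± 0.23, adjusted p = 0.000157), rose too. Rrm2b, the alternative small subunit of ribonucleotide reductase, measured 6.97, 6.82, 6.31 and 6.00 CPM in the Vehicle libraries and 9.63, 9.26, 13.6 and 9.09 CPM in the LPS libraries. It rose (log2 fold change 0.67 ± 0.16, adjusted p = 0.00522) where Rrm2 and Rrm1 fell, but its log2 fold change under library totals was -0.02.

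Of 24 E2F and Rb control genes, 15 fell and 6 rose, the rises being E2f5 (2.00), Lin54 (1.26), Rbl1 (0.62), E2f4 (0.49), Lin37 (0.47) and E2f3 (0.42) as log2 fold changes, of which Rbl1 (-0.09), E2f4 (-0.18), Lin37 (-0.21) and E2f3 (-0.26) turned negative and lost their calls under library totals. The rise of Lin37 was also not called with the replicate block (edgeR adjusted p = 0.0610). E2f4, E2f5 and Rbl1 are known for their part in repressor complexes. Other genes of this list fell, among them Rbl2 (-1.59), E2f6 (-0.77), E2f8 (-0.67), Tfdp1 (-1.04) and Tfdp2 (-3.65). Over all tested genes, 33.8% were called lower and 30.3% higher. A part of these genes in the falls above was not tested. The largest falls were those of E2f7 (-5.34), Foxm1 (-4.17) and E2f2 (-4.05). In LPS replicates 1 to 4, E2f7 held only 3, 2, 1 and 3 counts and E2f2 held 8, 0, 25 and 1. Of 20 S phase repair and checkpoint genes, 14 fell, among them Exo1 (-5.34), and Rad9a rose (1.35). The median log2 fold change of these 20 genes was -1.80. Of 34 mitotic genes, 30 fell, led by Plk1 (-6.58), Anln (-6.09) and Ccnb2 (-5.64), and Pttg1 rose (1.82). Their median log2 fold change was -4.17, against -1.74 for the replication and nucleotide supply genes, a comparison of medians with no test.

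**Figure D5:**
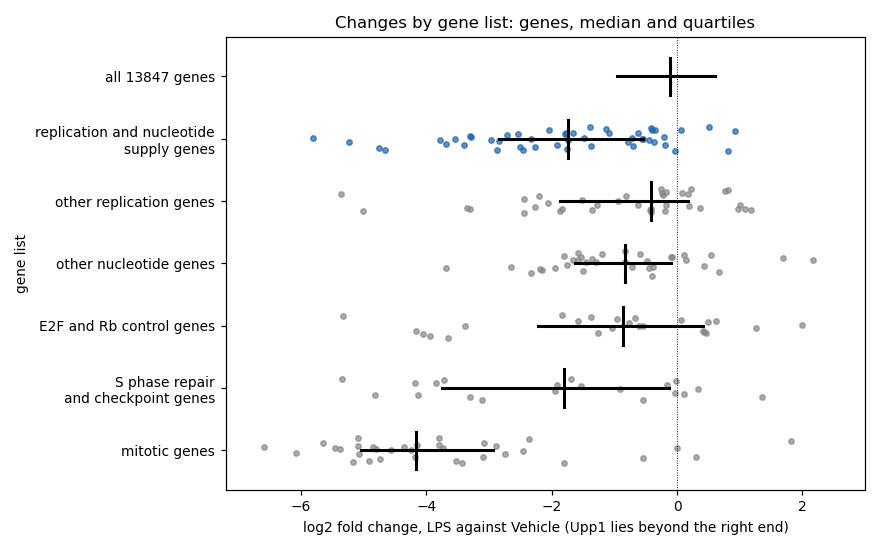
Log2 fold change of LPS against Vehicle for the genes of each list (points), with the median (tall bar) and quartiles (line), and the same summary over all 13847 tested genes. The replication and nucleotide supply genes centre at -1.74, close to the S phase repair and checkpoint genes (-1.80). Both lists lie between the other replication genes (-0.42) and the mitotic genes (-4.17).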

How the data were processed

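For each of the 8 libraries the authors deposited raw counts per Ensembl gene, from uniquely aligned single-end reads of 50 bases mapped to GRCm38 with GSNAP and counted with HTSeqGenie, without normalization. The labels name a stranded kit and the study's methods another kit and sequencer, the annotation release is not given in the sources used here, and neither is the use of strand in counting. Symbols and positions came from GENCODE vM21.

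LPS and Vehicle (4 libraries each) were compared by the two-sided quasi-likelihood test of edgeR 4.0.16 in R 4.3.3, with TMM and filterByExpr (min.count 10, min.total.count 15). Benjamini-Hochberg adjustment covered all 13847 genes tested, with a threshold of 0.05. The ± after a log2 fold change is an approximate standard error, its absolute value divided by the square root of the test's F statistic. Fits were tested on simulated data. Library totals ran from 20071921 to 30604447 counts, so the lowest genes rest on few counts. Rows without a symbol held 0.00512% of the counts. Ratios, summaries and motif searches were made in Python 3.11.15 with pandas 2.3.3 and scipy 1.17.1, and figures with matplotlib 3.10.9.

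To check pairing, each library's deviation from its group mean was correlated between the Vehicle and LPS libraries of a number, which gave r = 0.37, 0.20, 0.17 and 0.11 over 8010 genes. All were over the limit of 0.1, as were Vehicle 2 with LPS 4 (0.15) and Vehicle 4 with LPS 2 (0.14), so a fit with a replicate block is given where it changes the call of a named gene. The labels do not say what the numbers share, and they name no batch.

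The alternatives were DESeq2 1.42.0 (test and size factors), upper quartile normalization, no filter, at least 10 counts in every library, a threshold of 0.01, a minimum log2 fold change of 1, the block, each library left out, an offset of 0.5 CPM in ratios, and library totals alone. The gene list, the other lists and the tests were chosen with earlier results of these data known. Values by library are given, for each role, for the largest fall among called genes, the highest Vehicle level per length, every gene not called lower, and the genes of the 6 ratios. Tk1, Dut, Pole2, Pola1, Upp1 and Rrm2b were described further after their values were seen. Of the other lists, the called rises and the 3 largest falls are named, except for some repair genes that are not reported singly here.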

Additional observations from a re-analysis of the deposited data

Results flagged for a closer look

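In groups of 4 libraries, a value was picked out where its gap to the nearest library was large against the range of the group. This happened in 13 of 110 groups, where chance alone gives about 1 in 20 (5.5). The groups come from the same libraries and are not independent, so the difference between 13 and 5.5 was not tested. In 7 of them Vehicle replicate 1 was the low library: Mcm5 (28.8 CPM), Cdt1 (30.9 CPM), Gins2 (6.86 CPM), Pola1 (12.8 CPM), Pcna (7.81 CPM), Rfc1 (54.5 CPM) and Chaf1b (7.56 CPM). LPS replicate 3 stood apart as low for Mcm3 (8.44 CPM) and Pola1 (1.31 CPM) and as high for Mcm10 (2.15 CPM). LPS replicate 2 was high for Rpa3 (2.51 CPM) and LPS replicate 4 low for Chaf1b (5.52 CPM). The log2 ratio of Cdt1 to Gmnn was low in Vehicle replicate 3 (1.20). Causes were not tested.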

How the results depend on the processing

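Of the 49 genes, 30 kept their direction and their side of the threshold under every one of the 17 alternatives that tested them, and with at least 10 counts in every library only 40 of the 49 were tested. Counts of genes called lower ran from 31 (a minimum log2 fold change of 1) to 46 (library totals alone), and from 34 to 40 when 1 library was left out, with 40 under the replicate block for the paired numbers, which changed only the calls of Pcna and Rfc4 among the 49. In the other lists the block ended the calls of Lin37, Ctps2 and Rad1 and added those of Dbf4, Ccne1 and Tpx2. The 34 came without Vehicle replicate 3. Genes called higher fell from 2 to 0 under library totals and under a minimum log2 fold change of 1, and were 3 with DESeq2, its size factors or without LPS replicate 3, each time with Cdt1. The median moved from -1.74 to -1.32 with at least 10 counts in every library, which keeps fewer genes, and to -2.41 under library totals. Other replication genes called lower rose from 19 to 31 and those called higher fell from 6 to 1 under library totals, and to 3 with a minimum log2 fold change of 1. The sign turned for Cdt1 under library totals (-0.15). It turned for Gins4 under upper quartile normalization (-0.10), library totals (-0.62) and without LPS replicate 3 (-0.0127, with 0.157 the highest value when a library was left out). For Rfc3 it turned under DESeq2 size factors (0.0113) and the DESeq2 test (0.0078). It also turned for Rfc3 without Vehicle replicate 3 (0.143), LPS replicate 1 (0.0069) or LPS replicate 4 (0.0375). None of these Rfc3 values passed the test. With 3 against 4 libraries the smallest exact p of a ratio is 0.0571, so no ratio can pass the threshold with a library left out. Depth limits the genes that held few counts in the LPS libraries, among them Rrm2, Tk1, Dut, Pole, Pole2, Cdc6 and Orc1. In the other lists it limits large falls such as those of Clspn, Ticrr, Dctd, E2f7, E2f2 and Exo1. Intervals from counts would cover counting error only. The cause of the changes with scaling was not tested.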
